A study of Mus musculus with 36 samples.

Results

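This account covers 35 neuronal synapse, neuronal structure, myelin and astrocyte genes, chosen by gene symbol out of 53379 genes measured in mice that model translocation renal cell carcinoma. A 9-gene synaptic subset (Syt1, Syn1, Syn2, Snap25, Gria2, Grin1, Camk2a, Slc17a7 and Slc32a1) was summed in each library for comparison. All 35 genes had counts in at least 1 library. RNA came from formalin-fixed, paraffin-embedded tissue of 17 animals, in 36 libraries with 80205573 to 121415057 counts each.

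In the adult model, Cre recombinase under the Sglt2 promoter, which is active in the proximal tubule of the kidney, removed a stop cassette so that a single ASPSCR1-TFE3 LSL/+ allele was expressed. The 6 fusion mice (Sglt2-Cre; ASPSCR1-TFE3 LSL/+), numbered 1 to 6, gave 11 kidney tumor libraries, 3 brain tumor libraries (mice 1, 2 and 4), 4 retro-orbital tumor libraries from behind the eye (mice 2, 3, 5 and 6) and 4 libraries of kidney labelled as not transformed (mice 1, 3, 4 and 5). Control kidneys came from 3 Sglt2-Cre mice, with 2 libraries each. In the fetal model, kidneys labelled dysmorphic came from 5 Pax8-Cre; ASPSCR1-TFE3 LSL/+ fetuses, and controls from 3 fetuses labelled Pax8-Cre, a group that the design text gives as carrying either the Cre or the fusion allele alone. Neither ages nor the way a tumor was cut out of the surrounding tissue is given in the sources used here.

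At a synapse, vesicles held ready by Rims proteins and synapsins fuse with the membrane through Snap25 and the calcium sensor Syt1, and the released transmitter opens glutamate or GABA receptors on the next cell. Neuroligins and neurexins hold both sides together, oligodendrocytes wrap the axon in myelin, and astrocytes take glutamate back up through Slc1a2 and Slc1a3. Brain tissue is the richest source of these transcripts, and normal kidney tubules use few of them.

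The libraries were checked before the genes were compared. Gpnmb, Rragb and Gla, lysosomal genes high in TFE3-fusion tumors, summed to 3260 to 5180 CPM in the brain tumors, 3590 to 5770 in the retro-orbital tumors and 2710 to 9130 in the kidney tumors. They summed to 127 to 487 in the non-transformed kidneys and to 12.8 to 16.7 in control kidneys. CPM is the count of a gene relative to the total of its library, scaled by TMM (trimmed mean of M-values). Kidney tubule markers (8 genes) summed to 269 to 751 CPM in the brain tumors and 87.5 to 1270 in the retro-orbital tumors, but to 489 to 10200 in the kidney tumors, so some kidney tumor libraries held nearly as much tubule RNA as control kidney (10900 to 14600). Of the 35 genes, 25 were highest, among the 11 kidney tumor libraries, in kidney tumor 1 of mouse 4. Among the 4 retro-orbital tumors, 22 were highest in that of mouse 5, and among the 8 fetal kidneys, 28 were highest in dysmorphic fetus 5. No share over all genes was set beside these counts, so they do not tell whether the same libraries were highest for most genes. In bulk tissue, more cells of a type and more RNA per cell cannot be told apart.

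**Figure D1:**
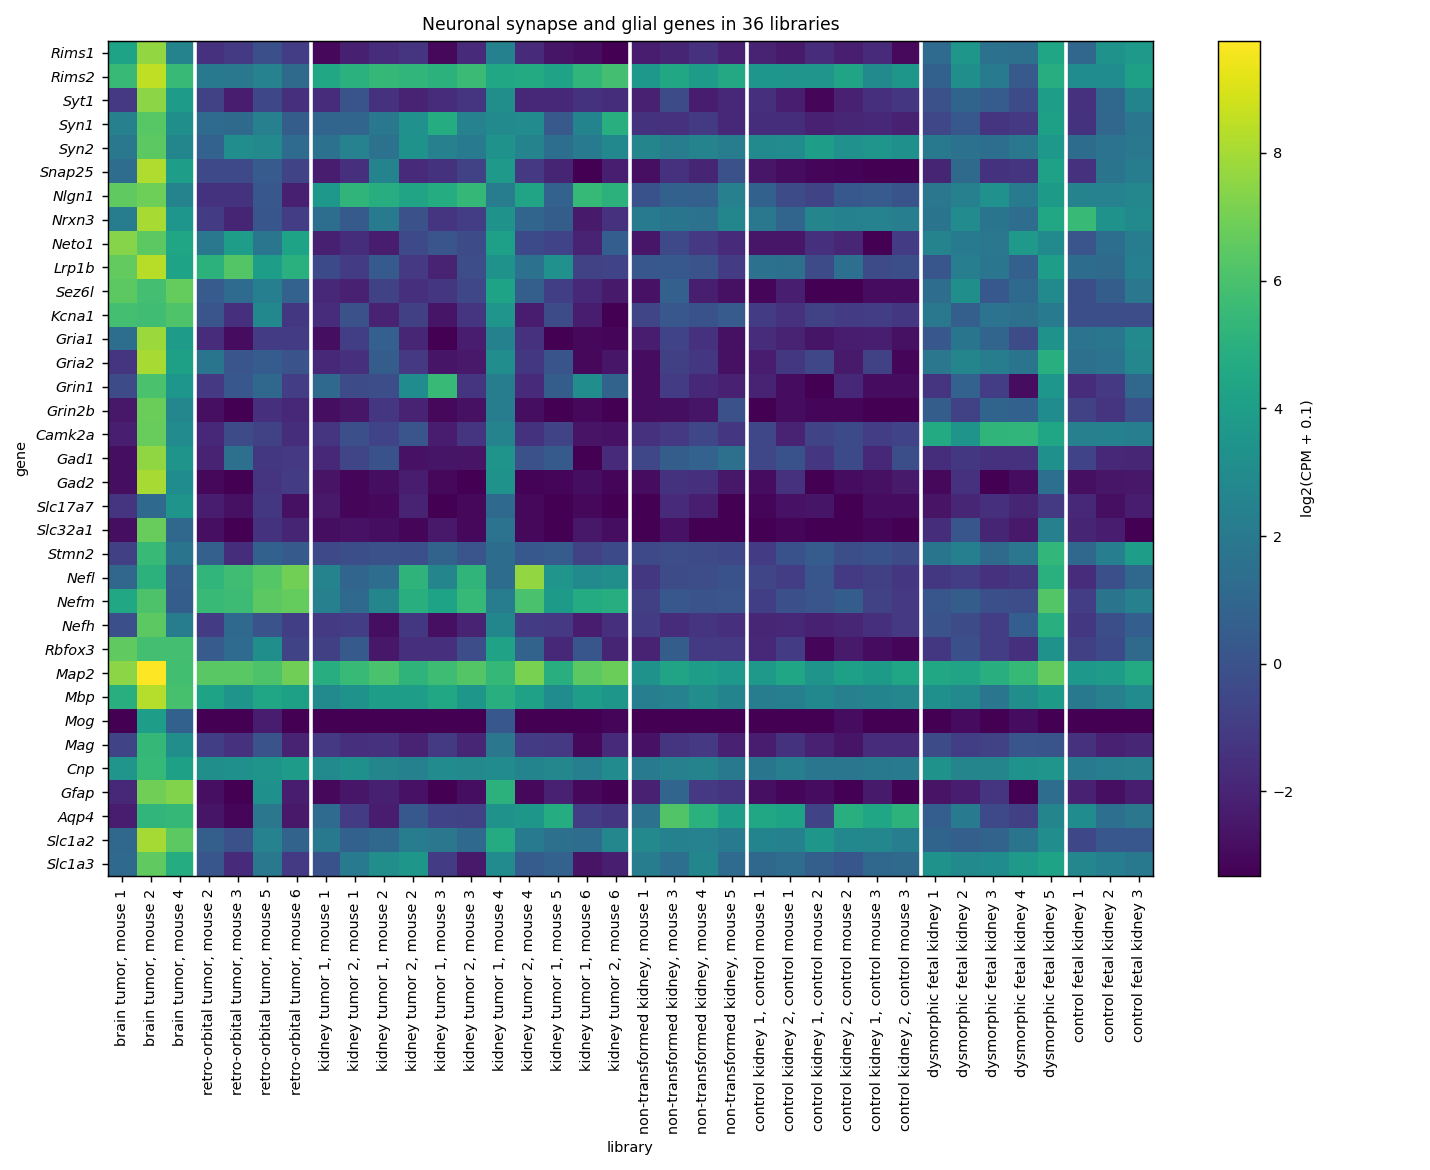
Level of each of the 35 genes (rows) in each of the 36 libraries (columns, grouped by tissue), as log2(CPM + 0.1). The brain tumor of mouse 2 is bright across nearly the whole set, kidney tumor 1 of mouse 4 and dysmorphic fetal kidney 5 stand out from their own groups, and Mog is near 0 outside a few libraries.

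The upstream sequence of the genes was searched for a pair of motifs: CACGTG, the palindromic E-box to which TFE3 and its relatives bind, and TTCAGCACC, the left part of the RE1 element through which the REST repressor keeps neuronal genes silent outside neurons. RefSeq windows of 250 bases before a transcript start (build GRCm38.p6, both strands) were at hand for 21 of the 35 genes, as 28 windows. CACGTG lay in 1 of the 28, beside 6.02% of all 32851 windows, and TTCAGCACC in 2 of the 28, beside 0.301% of all windows. The 3 windows are shown because they belong to Grin1, Nlgn1 and Syn1, which were all higher in kidney tumors than in control kidneys. A match is only a run of letters, and binding was not measured. Capitals mark the motif, each sequence reads 5′ to 3′ on the gene's strand, and all 3 genes are on the minus strand. The first lies at chr2:25319188-25319437, directly upstream of Grin1, and holds its motif at bases -181 and -85 from the start. The second lies at chr3:26153987-26154236, before 1 of the starts RefSeq gives Nlgn1 and inside an intron of the longer GENCODE gene. The last, at chrX:20921005-20921168, was cut back to the 164 bases that lie before the GENCODE start of Syn1.
Grin1: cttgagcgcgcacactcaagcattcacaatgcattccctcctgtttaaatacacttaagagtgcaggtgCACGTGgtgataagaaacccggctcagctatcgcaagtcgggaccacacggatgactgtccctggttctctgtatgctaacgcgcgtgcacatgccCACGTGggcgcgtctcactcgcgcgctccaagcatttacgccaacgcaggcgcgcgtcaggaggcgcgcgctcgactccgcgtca
Nlgn1: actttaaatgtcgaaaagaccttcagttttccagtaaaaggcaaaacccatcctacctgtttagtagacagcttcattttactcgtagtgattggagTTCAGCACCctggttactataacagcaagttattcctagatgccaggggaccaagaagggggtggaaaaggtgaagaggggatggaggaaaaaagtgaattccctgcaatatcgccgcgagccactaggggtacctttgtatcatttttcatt
Syn1: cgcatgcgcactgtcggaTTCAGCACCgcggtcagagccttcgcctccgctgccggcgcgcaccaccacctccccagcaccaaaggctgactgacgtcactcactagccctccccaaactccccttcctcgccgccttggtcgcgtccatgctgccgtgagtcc

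The first question was how far the genes differed between tumors in the brain and tumors at the other sites. Against the mean of both other sites in a joint fit, 31 of the 35 genes were called higher in brain tumors and 0 lower (edgeR quasi-likelihood test, Benjamini-Hochberg adjusted p under 0.05), where the shares over all 22534 genes tested were 9.13% higher and 4.82% lower. The median log2 fold change was 5.07 for the 35 genes and 0.07 for all genes. Nefl, Nefm, Gfap and Aqp4 did not pass. Without the brain tumor of mouse 2, 8 genes were called and the median fell to 2.87, and without any tumor of mouse 2, 1 gene (Rims2) was called with a median of 2.95. The former fit called 600 higher and 588 lower of all 23297 genes, and the latter 174 higher and 162 lower of all 22985. With mouse as a fixed block 0 were called, although 19 had an unadjusted p under 0.05 and the median log2 fold change was 4.42. That fit called 10 genes higher and 21 lower of all 22534. With mouse as a random block in limma-voom 21 were called, all higher, and DESeq2 called 24. Over all genes limma-voom called 1794 higher and 1222 lower of 22964, and DESeq2 2548 higher and 2318 lower of 22534. Against kidney tumors alone 12 genes were called, all higher (over 23391 genes the shares were 4.54% higher and 4.2% lower), and against retro-orbital tumors alone 4, all higher (0.395% higher and 1.34% lower over 21037 genes). Both of these comparisons use the same 3 brain tumors. The first count became 0 without the brain tumor of mouse 2 (12 genes at an unadjusted p under 0.05) and 23 without kidney tumor 1 of mouse 4, was 0 with mouse as a block (7 genes at an unadjusted p under 0.05, in a fit that called 0 of all 23391 genes), and was 3, 0, 1, 19, 3 and 2 when mouse 1, 2, 3, 4, 5 or 6 was left out. The second was 18, 0, 0, 7, 3 and 0 when the same mice were left out in turn. Without only the brain tumor of mouse 2 it was 4, with Rims1, Rims2 and Sez6l higher and Nefl lower. Calls over all genes moved too. In the same order of mice the first comparison called 277, 108, 375, 873, 583 and 491 genes higher. It called 276, 192, 566, 655, 675 and 712 lower. Without mouse 2, 3 or 6 the second called 0 genes higher and 0, 11 and 10 lower. Without mouse 1 it called 687 higher and 629 lower. DESeq2 called 22 of the 35 genes in both the first and the second comparison. Over all genes it called 2409 higher and 2706 lower of 23391 in the first. In the second it called 1478 higher and 1609 lower of 21037.

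The 3 brain tumors were not alike. The synaptic subset summed to 13.0 CPM in the brain tumor of mouse 1, 1190 in that of mouse 2 and 95.6 in that of mouse 4. The sum of mouse 2 was 91.5 times that of mouse 1 and 12.4 times that of mouse 4, and the sum of mouse 1 lay within the range of the 11 kidney tumors (6.88 to 77.8 CPM), of the 4 retro-orbital tumors (6.22 to 18.3) and of the control kidneys (8.79 to 17.5, mostly Syn2). In mouse 1, Syn1 and Syn2 made up 39.4% and 28.2% of the sum. All 9 subset genes were lowest in mouse 1, and 8 of the 9 were highest in mouse 2. Of the 35 genes, 28 were highest in mouse 2, 5 in mouse 4 and 2 in mouse 1, counts with no share over all genes beside them.

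**Figure D2:**
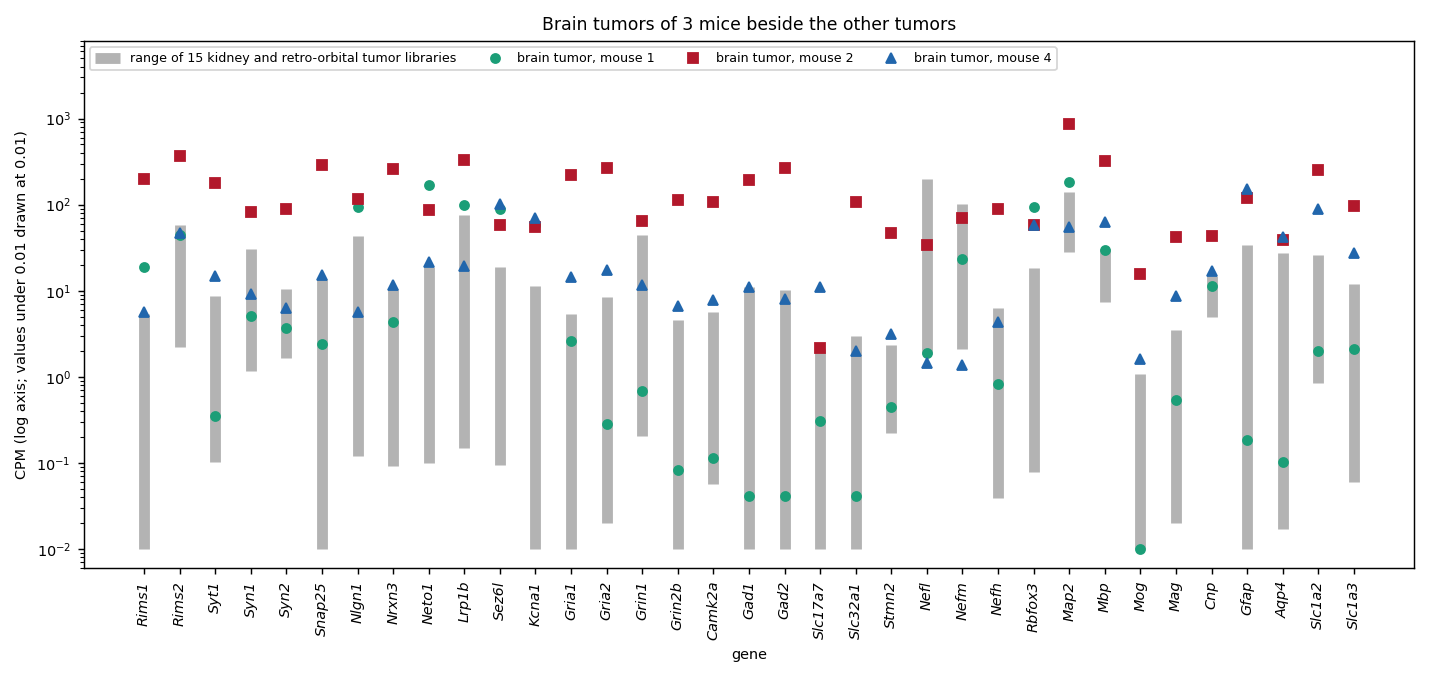
CPM (log axis) of the 35 genes in the brain tumors of mouse 1 (circles), mouse 2 (squares) and mouse 4 (triangles), over the range of the 15 kidney and retro-orbital tumor libraries (grey bars; values under 0.01 CPM are drawn at 0.01). All 3 brain tumors lie above the bar for only 5 genes, Rims1, Neto1, Sez6l, Kcna1 and Rbfox3, while for most synaptic and glial genes the tumor of mouse 1 lies inside it. No share over all genes was set beside this count.

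Most transcripts of transmission followed that order. Snap25, the membrane fusion protein of nerve endings, was at 2.44, 292 and 15.2 CPM in the brain tumors of mice 1, 2 and 4, a 120-fold range. Syt1, the calcium sensor of release, was at 0.348, 178 and 15 CPM, and its level in mouse 1 lay inside the range of the kidney tumors (0.147 to 8.78). Syn1 and Syn2, the synapsins that tether vesicles, were at 5.11 and 3.65 CPM in mouse 1, 81.2 and 87.9 in mouse 2, and 9.19 and 6.39 in mouse 4. All 4 release genes were thus highest in mouse 2, and for Syn1 a kidney tumor of mouse 6 (30.4 CPM) lay above the brain tumors of mice 1 and 4. Grin1, the obligatory NMDA receptor subunit, was at 0.686, 64.9 and 11.7 CPM. The AMPA receptor subunits went the same way: Gria2 was at 0.287, 267 and 17.2 CPM and Gria1 at 2.58, 220 and 14.6. Grin2b, another NMDA receptor subunit, was at 0.0819, 113 and 6.58 CPM, and Camk2a, the kinase of excitatory synapses, at 0.113, 106 and 7.84. In mouse 1 these 5 genes lay inside the range of the other tumors, while in mice 2 and 4 Gria1, Gria2, Grin2b and Camk2a stood above all 15 other tumor libraries. None of the 9 subset genes was called against kidney tumors alone by edgeR, although 7 had an unadjusted p under 0.05 and DESeq2 called 5; against the mean of both other sites edgeR called all 9. Syn2 did not keep its direction: its log2 fold change against the other sites was 2.76 ± 0.72 (SE; adjusted p = 0.0256) with all tumors and -0.05 without the brain tumor of mouse 2.

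The genes that mark inhibitory and excitatory cells differed between mice 2 and 4 as well. Gad2 and Gad1, which make GABA, were at 266 and 193 CPM in the brain tumor of mouse 2, at 8.07 and 11.0 in that of mouse 4 and at 0.0409 each in that of mouse 1. Slc32a1, which loads GABA into vesicles, was at 0.0409, 107 and 2.02 CPM in mice 1, 2 and 4. Slc17a7, the vesicular glutamate transporter of cortex, was instead highest in mouse 4, at 11.0 CPM, with 2.15 in mouse 2 and 0.307 in mouse 1. In mouse 2 the other vesicular glutamate transporter, Slc17a6, which marks deeper brain regions, was at 93.6 CPM, and in mouse 4 it was at 0.277. Mouse 2 was therefore high in GABA genes and Slc17a6, and mouse 4 had more Slc17a7 than Slc17a6; which region of the brain each tumor came from was not given in the sources used here.

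A second set kept a high level in all 3 brain tumors. Sez6l, a membrane protein of neurons, was at 89.1, 57.6 and 102 CPM in mice 1, 2 and 4, a 1.77-fold range. Kcna1, a voltage-gated potassium channel of axons, was at 57.4, 54.3 and 70.0 CPM, a 1.29-fold range. Rbfox3, the splicing factor known as the NeuN antigen of neuronal nuclei, was at 94.7, 57.6 and 57.5 CPM. The highest other tumor library for each of these 3 genes was kidney tumor 1 of mouse 4 (18.8, 11.3 and 18.2 CPM), and the highest retro-orbital tumor was that of mouse 5 (4.99, 6.79 and 9 CPM), so the groups did not overlap. The remaining 10 kidney tumors reached at most 1.45 CPM of Sez6l, 0.833 of Kcna1 and 1.67 of Rbfox3. Against kidney tumors, the log2 fold change was 5.37 ± 1.42 (SE) for Sez6l (edgeR adjusted p = 0.0488), 5.56 ± 1.27 for Kcna1 (0.0332) and 5.06 ± 1.3 for Rbfox3 (0.0443). Against retro-orbital tumors Sez6l differed by 5.02 ± 0.56 (adjusted p = 0.0212), while Kcna1 (4.83, adjusted p = 0.0897) and Rbfox3 (4.39, adjusted p = 0.068) did not pass. Sez6l, Kcna1, Rbfox3 and Neto1 were among the 8 genes still called against the other sites without the brain tumor of mouse 2, the others being Rims2, Nlgn1, Mbp and Slc1a2.

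Neto1, an auxiliary subunit of glutamate receptors, was highest in the brain tumor of mouse 1, at 169 CPM, with 87.0 in mouse 2 and 21.5 in mouse 4. The 4 retro-orbital tumors held 3.61, 15.2, 3.42 and 19.0 CPM, and the kidney tumors 0.0993 to 16.6 with a median of 0.643. Its level in brain tumors exceeded that in kidney tumors by 5.57 ± 1.26 (log2, SE; adjusted p = 0.0324, edgeR). Rims1, a scaffold of the release site, was at 19.0, 196 and 5.61 CPM in mice 1, 2 and 4, and the next tumor library, kidney tumor 1 of mouse 4, was at 5.30. The log2 fold change of Rims1 was 7.06 ± 1.73 against kidney tumors (adjusted p = 0.0398) and 7.31 ± 1.34 against retro-orbital tumors (0.0497). Rims2, its relative, was at 44.7, 364 and 46.7 CPM, of which only that of mouse 2 lay above the kidney tumors, while all 3 lay above the retro-orbital tumors (5.35 ± 0.89, log2 and SE, adjusted p = 0.0395). Nlgn1 (neuroligin 1) was at 93.9 CPM in mouse 1, 115 in mouse 2 and 5.65 in mouse 4, so here the brain tumors of mice 1 and 2 were close, that of mouse 4 lay inside the range of the kidney tumors, and all 3 lay above the retro-orbital tumors (7.35 ± 1.27, adjusted p = 0.0425). Lrp1b, a large receptor of the LDL receptor family, followed with 97.9, 326 and 19.2 CPM. Nrxn3 (neurexin 3), the partner of neuroligins, was low in mouse 1 (4.36 CPM) and at 260 and 11.7 in mice 2 and 4.

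Read against the synaptic subset of the same library, the groups of genes separated further. In the brain tumor of mouse 2, Sez6l, Kcna1, Rbfox3 and Neto1 came to 4.86%, 4.58%, 4.85% and 7.33% of the summed subset. In that of mouse 4 they came to 107%, 73.2%, 60.2% and 22.4%. In that of mouse 1, Sez6l came to 687%, Kcna1 to 442%, Rbfox3 to 730% and Neto1 to 1300%, ratios to a sum within the range of the control kidneys. Nlgn1 came to 724% of the subset in mouse 1, 9.71% in mouse 2 and 5.91% in mouse 4. Snap25, itself a subset gene, stayed at 18.8%, 24.6% and 15.9%, and Stmn2, a growth cone protein outside the subset, at 3.47%, 3.99% and 3.27%. Other synaptic genes did not keep their share in mouse 1: Syt1 was at 2.68%, 15% and 15.7% in mice 1, 2 and 4, Gria2 at 2.21%, 22.5% and 18%, Camk2a at 0.868%, 8.97% and 8.21%, and Gad2 at 0.315%, 22.4% and 8.44%. Levels per kilobase of exon, which allow genes to be ranked within a library, gave the same contrast. In mouse 1 the highest of the 35 genes were Neto1 (20.2 CPM per kb), Rbfox3 (16.3), Sez6l (14.7) and Kcna1 (12.0). In mouse 2 they were Map2 (52.6 CPM per kb), Gad2 (45.3), Snap25 (43.0) and Slc32a1 (38.2), and in mouse 4 Gfap (36.3), Sez6l (16.8) and Kcna1 (14.6).

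**Figure D3:**
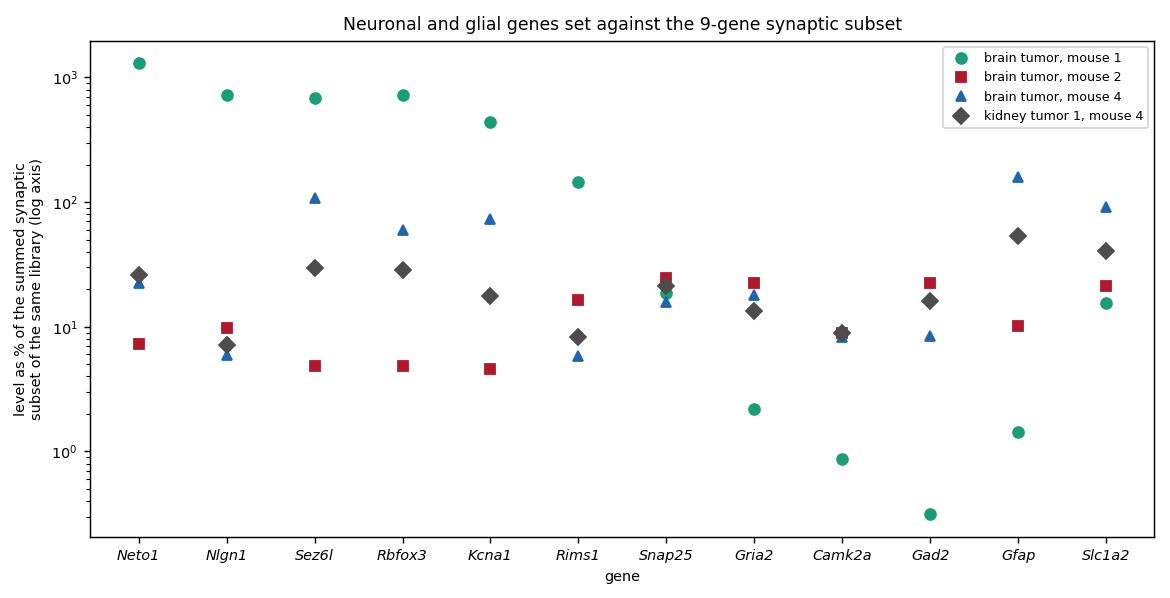
Level of 12 genes as a percentage (log axis) of the summed 9-gene synaptic subset of the same library, in the brain tumors of mice 1, 2 and 4 and in kidney tumor 1 of mouse 4. Snap25 stays between 15.9% and 24.6% in all 4 libraries, while Sez6l runs from 4.86% in the brain tumor of mouse 2 to 687% in that of mouse 1.

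Neuronal cytoskeleton genes did not move as 1 group. Map2, a microtubule protein of dendrites, was at 181, 866 and 55.7 CPM in the brain tumors of mice 1, 2 and 4, and the highest other tumor library held 142. Nefh, the heavy neurofilament, was at 0.819, 89.3 and 4.35 CPM. Stmn2 was at 0.450, 47.3 and 3.13 CPM and was called against kidney tumors (log2 fold change 4.00 ± 1.05 SE, adjusted p = 0.0485). The light and medium neurofilament genes had another pattern. Nefl was at 1.88, 34.4 and 1.46 CPM in the brain tumors, and at 39.4, 54.5, 78.5 and 127 CPM in the retro-orbital tumors of mice 2, 3, 5 and 6. Nefm was at 23.1, 69.2 and 1.37 CPM in the brain tumors and at 46.9, 49.6, 88.4 and 101 CPM in the retro-orbital tumors. For Nefl no brain tumor reached the lowest retro-orbital tumor, and for Nefm only that of mouse 2 did. Exons of Nefl and Nefm share 1108 bases on opposite strands, 32.8% of the exons of Nefl, and whether the counts used strand is not given in the sources used here, so levels of the 2 genes are not fully separate.

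Myelin genes were highest in the brain tumors of mice 2 and 4. Mbp, the most abundant protein of compact myelin, was at 30.1, 321 and 62.3 CPM in mice 1, 2 and 4, and the kidney tumors ranged from 7.32 to 30.7 with a median of 15.5. Averaged by mouse the groups did not overlap, and Mbp differed by 3.27 ± 0.65 (log2, SE) from kidney tumors (adjusted p = 0.0226). Mag, a glycoprotein of the innermost wrap, was at 0.532, 41.9 and 8.74 CPM (5.01 ± 1.24, adjusted p = 0.0406). Mog, the outermost myelin protein and the strictest oligodendrocyte marker of the set, had no count in mouse 1 (3 counts, the most that a count of 0 allows, came to at most 0.0381 CPM in any library) and was at 15.8 and 1.6 CPM in mice 2 and 4. Cnp, an enzyme of myelinating cells that many tissues express at a low level, was at 11.3, 43.1 and 17 CPM, against 4.92 to 9.33 in the kidney tumors and 9.03 to 14.8 in the retro-orbital tumors. The other oligodendrocyte markers (9 genes) summed to 4.75, 1070 and 177 CPM in mice 1, 2 and 4.

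Of the 4 astrocyte genes, Slc1a2 and Slc1a3 followed the order of most synaptic genes, and Gfap and Aqp4 were at similar levels in mice 2 and 4. Gfap, the intermediate filament of astrocytes, was at 0.184, 121 and 153 CPM in mice 1, 2 and 4, and Aqp4, the water channel of astrocyte end feet, at 0.102, 39.2 and 42.1. Relative to the synaptic subset Gfap was at 160% in mouse 4 and 10.2% in mouse 2. Slc1a2 was at 2.02, 252 and 87.8 CPM and was called against kidney tumors (4.47 ± 1.08 SE on the log2 scale, adjusted p = 0.0388). Slc1a3 was at 2.11, 95.7 and 27.1 CPM. In mouse 1 both Gfap and Aqp4 lay inside the range of the other tumors. The 7 other astrocyte markers summed to 791, 1110 and 258 CPM in mice 1, 2 and 4, against 106 to 483 in the kidney tumors, 498 to 770 in the retro-orbital tumors and 46.5 to 87.3 in control kidneys. Most of the sum in mouse 1 was Gja1, a gap junction gene of many tissues (758 CPM), while Slc6a11 and S100b had no count there. Aqp4 is also a channel of the kidney collecting duct: control kidneys held 0.551 to 35.3 CPM and non-transformed kidneys 2.97 to 74.8.

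Other genes of the same cell types, from lists set up beside the 35, were read in the same way against the joint mean of the other sites, where 9.13% of all genes were called higher and the calls of the 35 genes depended on mouse 2 and on the block, as given above. Of 15 further presynaptic genes 11 were called higher and 0 lower, and of 14 further postsynaptic genes 8 and 0. Of 9 further genes of neuronal nuclei and RNA binding 4 were called higher, and of 5 markers of regional neurons tested 2. Among 9 oligodendrocyte markers 8 were tested and 5 were called higher, among 7 astrocyte markers 5, and among 4 microglia markers 0 (0 at an unadjusted p under 0.05 and 0 by DESeq2; median log2 fold change 0.55). Against kidney tumors Rab3a, a vesicle GTPase, was at 69.0, 91.1 and 80.9 CPM in mice 1, 2 and 4 (2.66 ± 0.33 SE on the log2 scale, adjusted p = 0.00534), and Sv2a, a vesicle membrane protein, at 108, 194 and 130 CPM (2.53 ± 0.46, adjusted p = 0.0178). Both calls are from the fit without a block, and with mouse as a block 0 of all 23391 genes were called in this comparison. Syp, the classical vesicle marker, was at 0.716, 62.3 and 5.90 CPM in the brain tumors of mice 1, 2 and 4.

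The same question was put to the retro-orbital tumors, which lie close to nerve, muscle and eye. Of the 33 genes tested against kidney tumors, 4 were called, 2 higher and 2 lower, where 17.7% of 22136 genes were called, 8.26% higher and 9.45% lower. The median log2 fold change of the genes tested was -0.37, beside -0.09 over all genes. Its sign was not stable, since it was 0.33 without kidney tumor 1 of mouse 4, 0.42 without both kidney tumors of that mouse, 0.66 with mouse as a block and -1.28 without the retro-orbital tumor of mouse 5. Nlgn1 was at 0.280, 0.277, 1.06 and 0.120 CPM in the retro-orbital tumors of mice 2, 3, 5 and 6 and at 1.66 to 42.7 CPM (median 27.5) in the kidney tumors. The groups did not overlap, and Nlgn1 was lower by a log2 fold change of -5.76 ± 1 (adjusted p = 0.005, edgeR). Rims2 was at 3.78, 3.67, 5.40 and 2.22 CPM in the retro-orbital tumors against 18.5 to 58.5 CPM (median 33.7), a log2 fold change of -3.21 ± 0.35 (adjusted p = 0.00139). Control kidneys held 7.44 to 19.6 CPM of Rims2, above all 4 retro-orbital tumors, and 0.542 to 1.59 CPM of Nlgn1, a range that held the retro-orbital tumor of mouse 5.

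Lrp1b went the other way. It was at 33.3, 76.3, 16.3 and 31.3 CPM in the retro-orbital tumors and at 0.150 to 10.3 CPM (median 0.657) in the kidney tumors (log2 fold change 3.55 ± 1.02 SE, adjusted p = 0.0381). Nefm differed by 1.67 ± 0.51 (adjusted p = 0.0453), and all 4 retro-orbital tumors lay above every kidney tumor library but kidney tumor 2 of mouse 4, which held 64.0 CPM of Nefm and 201 CPM of Nefl. The count of calls moved to 2 without mouse 2, 3 or 6 and to 8 without mouse 4, with 7 called when only kidney tumor 1 of mouse 4 was left out. Nlgn1 and Rims2 were called in each of these fits. Over all genes the fits without mouse 2, 3 or 6 called 903, 833 and 926 higher and 902, 802 and 849 lower. Without mouse 4 it was 1690 higher and 1440 lower. With mouse as a block 5 genes were called, of which Rims2 and Nefm were among the 4, while Sez6l, Neto1 and Aqp4 were not and Nlgn1 and Lrp1b were lost. Retina markers summed to 3.05, 1.83, 1.02 and 0.820 CPM in the tumors of mice 2, 3, 5 and 6. Schwann cell markers (7 genes) summed to 13.1 to 52.9 CPM in the retro-orbital tumors and to 12.1 to 201 in the kidney tumors. Of the 7, 1 (Drp2) was called higher and 0 lower, where 8.26% of all genes were called higher, and 6 had a fold change above 0. The tumor of mouse 5 held 9.23 CPM of Gfap and 1270 of the summed kidney tubule markers, and without it 4 genes were called, with Aqp4 (lower) in place of Nefm.

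In the kidney, the comparison of tumors with control kidneys asks whether these genes differ where no brain is near. Of 34 genes tested, 9 were called higher in kidney tumors and 0 lower, where 12.5% of 23578 genes passed as higher and 6.51% as lower, and the median log2 fold change was 2.01, beside 0.05 over all genes. The median was 0.66 without kidney tumor 1 of mouse 4. The 9 were Grin1, Nefl, Syn1, Nefm, Nlgn1, Map2, Rims2, Mbp and Cnp, and for each of them the 6 fusion mice lay above the 3 control mice. The test that picked these genes used the same mice, so this separation adds nothing to the calls, and no share over all genes was set beside it.

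**Figure D4:**
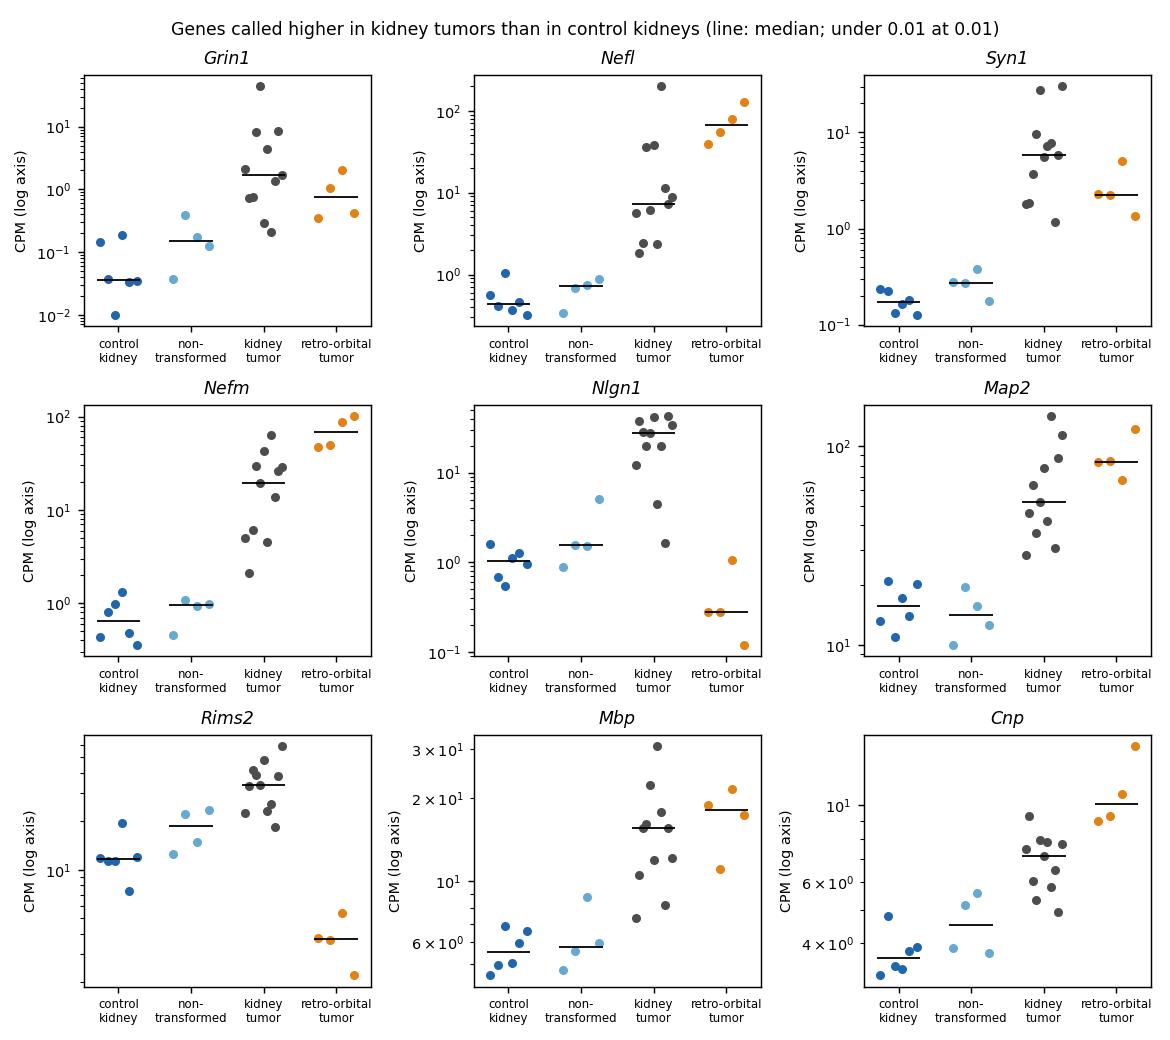
CPM (log axis) of the 9 genes called higher in kidney tumors than in control kidneys, for each library of control kidney, non-transformed kidney, kidney tumor and retro-orbital tumor; lines are medians, and values under 0.01 are drawn at 0.01. Nlgn1 and Rims2 are high in kidney tumors and low in retro-orbital tumors, and the medians of Nefl and Nefm are higher still in retro-orbital tumors.

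Nlgn1, whose upstream window is shown above, was at 0.542 to 1.59 CPM (median 1.04) in control kidneys and at 1.66 to 42.7 (median 27.5) in kidney tumors, where kidney tumor 1 of mouse 4 (4.51) and the kidney tumor of mouse 5 (1.66) were lowest and the other 9 libraries were at 12.3 or more. It was higher by 4.43 ± 0.89 (log2, SE; adjusted p = 0.0114, edgeR). Syn1 was at 0.127 to 0.233 CPM in control kidneys and at 1.17 to 30.4 (median 5.88) in kidney tumors, a difference of 5.57 ± 1.05 (adjusted p = 0.00906). Grin1 was at or under 0.185 CPM in control kidneys and at 0.205 to 44.6 (median 1.70) in kidney tumors (6.38 ± 1.25, adjusted p = 0.0103). The top value of Grin1 was 1 library, kidney tumor 1 of mouse 3, and kidney tumor 2 of the same mouse held 0.289 CPM. Rims2 was at 7.44 to 19.6 CPM (median 11.6) in control kidneys and at 18.5 to 58.5 in kidney tumors (1.42 ± 0.32, adjusted p = 0.0176). Grin1 also overlaps the antisense gene Grin1os over 1307 bases, and Grin1os was at 0.118 CPM in kidney tumors and 0.124 in control kidneys.

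Nefl rose from 0.323 to 1.05 CPM in control kidneys to 1.85 to 201 CPM (median 7.26) in kidney tumors, and Nefm from 0.357 to 1.33 to 2.10 to 64.0 CPM (median 19.2), with log2 fold changes of 5.65 ± 1.21 (adjusted p = 0.0144) and 4.84 ± 0.78 (adjusted p = 0.0046). Their partner in axons, Nefh, was at 0.0397 to 0.416 CPM in every kidney tumor but kidney tumor 1 of mouse 4 (6.30) and did not pass (1.87, adjusted p = 0.282). Map2 was at 11.0 to 21 CPM in control kidneys and at 28.3 to 142 CPM in kidney tumors, a difference of 1.93 ± 0.40 (adjusted p = 0.0132). Mbp (1.33 ± 0.35, adjusted p = 0.0299) and Cnp (0.85 ± 0.19, adjusted p = 0.0186) differed by less. Schwann cell markers (7 genes) summed to 12.1 to 201 CPM (median 87.6) in kidney tumors and to 4.4 to 7.6 in control kidneys. Of these 7, Cdh19, Egr2 and Drp2 were called higher and 0 lower, where 12.5% of all genes were called higher. Their median log2 fold change was 0.08, beside 0.05 over all genes. Snap25, Gria1, Gria2, Camk2a, Gad1, Gad2, Slc17a7, Slc32a1, Gfap and Mag did not pass by edgeR, and their medians over the kidney tumor libraries were at most 0.310 CPM. DESeq2 called 11 genes, the same 9 with Snap25 as higher and Syn2 as lower, in a fit that called 4259 higher and 2820 lower of all 23578. For Snap25 all 6 fusion mice lay above the controls (log2 fold change 6.24, edgeR adjusted p = 0.0654). The 9 calls needed all 3 control mice: 4 were left without control mouse 1, and 1 (Nefm) without control mouse 2 or control mouse 3. Calls as higher over all genes also fell, from 2940 to 1482, 1049 and 1053 without control mouse 1, 2 or 3. Without kidney tumor 1 of mouse 4, 13 genes were called, Sez6l and Neto1 being added as higher and Syn2 and Slc1a2 as lower.

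Kidney tumor 1 of mouse 4 was set beside kidney tumor 2 of that mouse, since the 2 libraries share the animal. Snap25 was at 13.6 CPM in the first and 0.348 in the second, Kcna1 at 11.3 and 0.102, Grin2b at 4.52 and 0.0409, and Sez6l at 18.8 and 1.45. Gfap was at 33.8 CPM against 0.0205, at or under 3 counts, so at least 1100-fold higher with a floor of 3 counts in the second library. The same floor gave at least 332-fold for Gad2 and 98.4-fold for Slc32a1. Of the 9 genes called in kidney tumors, 6 were lower or about level in the first, with Nefl at 2.39 and 201 CPM, Nefm at 4.51 and 64.0, Nlgn1 at 4.51 and 19.9, Map2 at 41.9 and 142, Syn1 at 7.21 and 7.73 and Rims2 at 23.2 and 25.5. Grin1 (4.39 and 0.205 CPM), Mbp (30.7 and 17.7) and Cnp (7.85 and 5.83) were higher in the first. No test was made, since each is 1 library.

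Set against the brain tumor of the same mouse, kidney tumor 1 of mouse 4 held 89.4% of its Snap25, 94.4% of its Rims1, 99.6% of its Gad1 and 126% of its Gad2, but 18.4% of its Sez6l, 16.1% of its Kcna1, 22.1% of its Gfap and 18.9% of its Slc17a7. The summed synaptic subset was 63.6 CPM, and Sez6l, Kcna1 and Rbfox3 came to 29.5%, 17.8% and 28.6% of it. Otx2, a transcription factor of midbrain and choroid plexus, was at 9.43 CPM in kidney tumor 1 and had no count in kidney tumor 2 of the mouse, with 27.6 CPM in its brain tumor. Kidney tubule markers summed to 9560 CPM in kidney tumor 1, 7120 in kidney tumor 2 and 751 in the brain tumor. Whether brain RNA reached this library was not tested.

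Kidney outside the tumors was compared with control kidneys. Gpnmb, Rragb and Gla summed to 127 to 487 CPM in the non-transformed kidneys, against 12.8 to 16.7 in control kidneys, and Gpnmb was called higher. By edgeR, 0 of 30 genes tested were called, where 0.00952% of 21019 genes were called, and 6 had an unadjusted p under 0.05. DESeq2 called 3, Gfap and Kcna1 as higher and Syn2 as lower. Over all 21019 genes it called 244 higher and about as many lower. Gfap was at 0.130, 1.81, 0.350 and 0.305 CPM in the non-transformed kidneys of mice 1, 3, 4 and 5 and at 0 to 0.0904 CPM in control kidneys (log2 fold change 4.29, adjusted p = 0.206). Snap25 was at 0.0465, 0.259, 0.158 and 0.839 CPM against 0 to 0.0716 in control kidneys (3.82, adjusted p = 0.31). Syn2 was at 7.50 to 16.1 CPM in control kidneys and at 4.41 to 5.99 CPM in the 4 non-transformed kidneys, which did not overlap (log2 fold change -1.02, adjusted p = 0.187).

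Fetal kidney gave a further view, since its Cre driver acts early in the kidney epithelium. Of 34 genes tested, 2 were called higher in dysmorphic than in control fetal kidneys and 0 lower, where 2.67% of all 22690 genes passed (2.4% as higher, 0.269% as lower), and the median log2 fold change was 1.15, beside -0.04 over all genes. Without dysmorphic fetus 5 the median was 0.03. Camk2a was at 25.6, 10.8, 38.2, 38.7 and 20.8 CPM in dysmorphic fetuses 1 to 5 and at 5.05, 5.28 and 4.69 CPM in the controls, a difference of 2.38 ± 0.42 (log2, SE; adjusted p = 0.0366, edgeR). Kcna1 was at 3.66, 1.46, 3.06, 2.76 and 4.17 CPM against 0.798, 0.776 and 0.754 (1.92 ± 0.36, adjusted p = 0.0395). Neither group overlapped with the other for these genes. Both calls were lost when dysmorphic fetus 1, 3 or 4 or any 1 control fetus was left out, in fits that called 0 of all genes tested, and both remained without dysmorphic fetus 5; without fetus 2 there were 3, with Mag added. Over all 8 of these fits the log2 fold change ranged from 2.21 to 2.57 for Camk2a and from 1.77 to 2.09 for Kcna1. DESeq2 called 8. The titles of the fetuses begin with 1 of 2 codes that cross the groups (dysmorphic 1, 2 and 3 with controls 1 and 2, and dysmorphic 4 and 5 with control 3), and what the codes stand for is not given in the sources used here. If they mark litters, the 8 fetuses are not fully independent. With the code as a block 0 genes were called by edgeR and 9 had an unadjusted p under 0.05. The log2 fold changes were then 2.36 for Camk2a (adjusted p = 0.0514) and 1.89 for Kcna1 (adjusted p = 0.052).

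**Figure D5:**
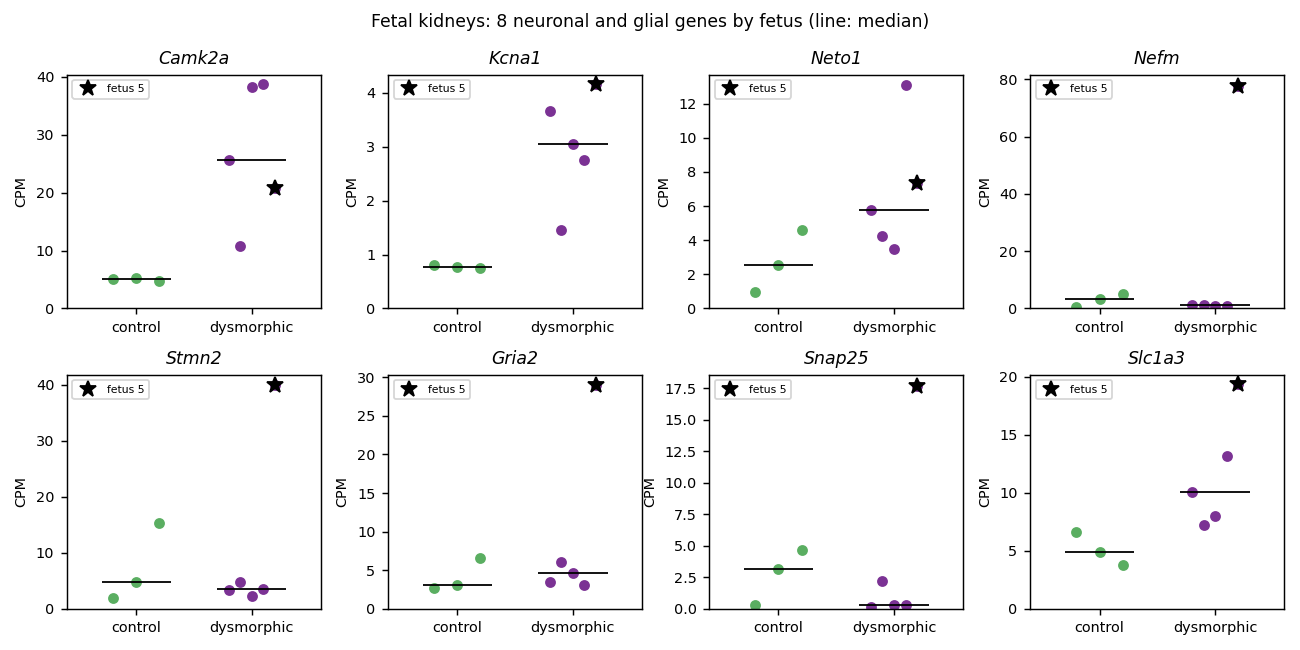
CPM of 8 genes in the kidneys of 3 control and 5 dysmorphic fetuses (points; lines are medians; the star is dysmorphic fetus 5). Camk2a and Kcna1 are higher in all 5 dysmorphic kidneys, while Nefm, Stmn2, Gria2 and Snap25 are highest in fetus 5.

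Dysmorphic fetus 5 stood apart in neuronal genes. Nefm was at 77.8 CPM there and at 0.757 to 1.36 in the other 4 dysmorphic kidneys, Nefh at 30.6 against at most 1.41, Stmn2 at 39.9 against at most 4.83, and Snap25 at 17.7 against at most 2.17. Gria2 was at 29.0 CPM, Syn1 at 17.4 and Rbfox3 at 9.95. The astrocyte genes Gfap (2.48 CPM, at most 0.304 in the other dysmorphic kidneys) and Slc1a2 (8.44, at most 3.18) were also highest there, Mog had no count, and Slc17a6 was at 16.8 CPM. Neuroendocrine markers, which include chromogranins, summed to 99.4 CPM in it, 3.43 to 13.8 in the other 4 dysmorphic kidneys and 3.07, 46.1 and 79.4 in the 3 controls. What this library holds besides kidney was not tested.

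The difference between the fusion effect in the adult kidney tumors and that in the fetal kidneys was tested in a joint fit of these 4 groups. Of 34 genes tested 1 was called, Nlgn1, where 8.94% of 24444 genes were called, 6.87% with a larger effect in the adult model and 2.07% with a smaller one. The effect on Nlgn1 was larger in the adult model by 4.23 ± 0.98 (log2, SE; adjusted p = 0.0153, edgeR), while the median of all genes in this contrast was 0.16. In fetal kidneys Nlgn1 was at 3.48, 5.12, 9.64, 3.94 and 14.1 CPM in the dysmorphic group and at 5.68, 5.55 and 6.51 CPM in the controls, so these groups overlapped. The call was lost without control mouse 2 or control mouse 3, a second gene (Slc1a2, smaller in the adult model) was called without mouse 4, and 7 genes were called without dysmorphic fetus 5. Without control mouse 2 or 3, 782 and 839 of all genes were called with a larger adult effect, beside 1680 with all animals. With the title code as a block 2 genes were called, Nlgn1 (4.28, adjusted p = 0.017) and Syn1. Age, Cre driver and tissue all differ between the models and cannot be told apart.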

How the data were processed

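Total RNA from formalin-fixed, paraffin-embedded tissue was sequenced after a stranded library kit with no depletion of ribosomal RNA. The authors deposited raw counts per gene and library, and their processing notes name FastQC, MultiQC, Bowtie2 and STAR 2.5.2a with build GRCm38 (mm10). The counter, the annotation and the strand setting are not given in the sources used here. Of the counts from 1 to 20, 79.04% to 84.33% were even, so both mates of a read pair may have been counted, and halved counts were run as an alternative.

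Libraries of 1 animal were summed within a group, since p-values should rest on animals. Counts were fitted with edgeR 4.0.16 (R 4.3.3; TMM scaling, filterByExpr, quasi-likelihood F test), with Benjamini-Hochberg adjustment over all genes tested and calls at an adjusted p under 0.05. Each SE was derived from the fold change and its F statistic. The fits were tested on simulated data with 200 changed genes. DESeq2 1.42.0, limma 3.58.1, other scalings and filters, and fits without single animals were alternatives. Exon lengths came from GENCODE M21, which matched 53274 of 53379 gene identifiers without the version. Members and lists were chosen with earlier results of these data known. Named genes were all 35 members by role and, from each other list, genes called between tumors (at most 3 by fold) or at 0. Sv2a, Syp, Gja1, Slc17a6, Otx2 and the neuroendocrine genes called in kidney tumors were chosen after their values were seen. Counting intervals and floors cover counting error only. The titles place tumors in the same mouse. Deviations from the group means correlated at -0.047 to -0.017 between kidney and brain tumors of a mouse (3 mice), at 0.112 to 0.234 between kidney and retro-orbital tumors (4 mice) and at -0.052 between the retro-orbital and brain tumors of mouse 2.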

Additional observations from a re-analysis of the deposited data

Results flagged for a closer look

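In groups of 4 to 10 animals, the level of a gene in 1 animal stood far from the others (Dixon's test at 95%) for 56 of 139 levels examined. Independent levels with a normal spread would give about 1 in 20, or 7. The levels were not independent, since 21 flags fell on the kidney tumors of mouse 4 and 20 on dysmorphic fetus 5. A normal spread of CPM was not checked, and no rate over all genes was set beside the 56, so the excess over 7 was not measured. In all 56 flagged cases the animal was the highest of its group, and levels are CPM summed over the libraries of an animal. Causes were not tested.

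The kidney tumors of mouse 4 stood apart in 21 genes. Among release and membrane genes, Rims1 was at 2.80 CPM, Syt1 at 4.57, Nrxn3 at 6.19, Neto1 at 8.78, Sez6l at 10.3 and Kcna1 at 5.81. Receptor and kinase genes followed, with Gria1 at 2.87, Gria2 at 4.49, Grin2b at 2.33 and Camk2a at 3.00 CPM. Transmitter genes were Gad1 at 6.00, Gad2 at 5.2, Slc17a7 at 1.07 and Slc32a1 at 1.55 CPM. Neuronal structure and nucleus genes were Nefl at 99.7, Nefh at 3.41 and Rbfox3 at 10.1 CPM, and the glial genes Mog at 0.546, Mag at 1.99, Gfap at 17.2 and Slc1a2 at 15.3 CPM. Nefl came from kidney tumor 2 of that mouse and the other 20 mainly from kidney tumor 1.

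Dysmorphic fetus 5 stood apart in 20 genes. Its release and membrane genes were Syt1 at 16.0, Syn1 at 17.4, Syn2 at 12.4, Snap25 at 17.7, Nrxn3 at 21.7 and Lrp1b at 16.2 CPM. Its receptor genes were Gria1 at 10.5, Gria2 at 29.0, Grin1 at 11.5 and Grin2b at 8.03 CPM, and its transmitter genes Gad1 at 9.22, Gad2 at 2.63 and Slc32a1 at 5.06. Cytoskeleton and nucleus genes were Stmn2 at 39.9, Nefl at 31.7, Nefm at 77.8, Nefh at 30.6 and Rbfox3 at 9.95 CPM, and astrocyte genes Gfap at 2.48 and Slc1a2 at 8.44.

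The retro-orbital tumor of mouse 5 stood apart in Snap25 (1.26 CPM), Nlgn1 (1.06), Kcna1 (6.79), Mog (0.110), Gfap (9.23) and Aqp4 (3.52). The non-transformed kidney of mouse 3 did so in Syt1 (0.711 CPM), Sez6l (1.5), Slc32a1 (0.0576) and Gfap (1.81), and that of mouse 5 in Nlgn1 (5.15) and Grin2b (0.864). Single genes were Grin1 in the kidney tumors of mouse 3 (22.0 CPM), Gria2 in the retro-orbital tumor of mouse 2 (3.34) and Gad1 in that of mouse 3 (2.70).

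The fusion effect on Nlgn1 differed between the adult and the fetal model, by 4.23 on the log2 scale (edgeR adjusted p = 0.0153).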

How the results depend on the processing

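Numbers of the 35 genes called moved with the tool, the animals and the pairing by mouse. In brain against kidney tumors 12 became 22 by DESeq2, 22 by limma-voom on libraries with mouse as a random block, 0 with the replicate block, 19 without the kidney tumors of mouse 4 and, chosen after seeing the data, 23 without kidney tumor 1 of mouse 4 and 0 without the brain tumor of mouse 2. In brain against retro-orbital tumors 4 became 22 by DESeq2 and, chosen after seeing the data, was 4 without the brain tumor of mouse 2 (3 higher, 1 lower). Against the mean of both sites 31 became 0 with the replicate block, 21 by limma-voom and, chosen after seeing the data, 8 without the brain tumor of mouse 2. In retro-orbital against kidney tumors 4 became 9 by limma-voom, 8 without the kidney tumors of mouse 4 and, chosen after seeing the data, 7 without kidney tumor 1 of mouse 4. By DESeq2, 0 became 3 in non-transformed kidney and 2 became 8 in fetal kidney. Numbers called over all genes moved with these settings too, and DESeq2 called more of all genes than edgeR in each comparison where both were run. With the title code of the fetuses as a block, chosen after seeing the data, the fetal count became 0 and that for the difference between models went from 1 to 2. Leaving out single animals gave 0 to 19 in brain against kidney tumors, 0 to 18 against retro-orbital tumors, 1 to 31 against both, 2 to 8 in retro-orbital tumors, 1 to 11 in kidney tumors, 0 to 0 in non-transformed kidney, 0 to 3 in fetal kidney and 0 to 7 for the difference between models. The direction of Syn2 against both sites turned, from 2.76 to -0.12 without mouse 2 (up to 3.26 without mouse 1) and to -0.05 without the brain tumor of mouse 2. Beyond that construction (fewer animals, another tool), the cause was not tested. No replicate block or random block could be fitted for brain against retro-orbital tumors, which share only mouse 2. With 3 brain tumors and levels of many genes under 1 CPM outside them, depth limits what can be said of low genes.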

Other observations

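Neuroendocrine genes (chromogranins, secretogranins and related genes, 6 in all), which neurons share with hormone-secreting cells, summed to 20.5, 485 and 136 CPM in the brain tumors of mice 1, 2 and 4. Kidney tumors held 0.738 to 41.0 CPM, retro-orbital tumors 9.86 to 38.4 and control kidneys 0.0924 to 0.169, so every kidney tumor library lay above every control kidney. Of 4 genes tested in kidney tumors against control kidneys, Scg2, Scg3 and Chgb were called higher (edgeR), where 12.5% of 23578 genes were called higher. Calls in this comparison depended on the control mice: 2940 genes were called higher with all 3, and 1482, 1049 and 1053 without control mouse 1, 2 or 3.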
